A study of Mus musculus with 35 samples.

Results

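Expression of 9 genes of the EGF receptor family was examined in 35 RNA-seq libraries of mouse pancreatic ductal adenocarcinoma (PDAC) cells. The 9 genes were 6 ligands (Areg, Ereg, Hbegf, Tgfa, Btc and Nrg1) and 3 receptors (Egfr, Erbb2 and Erbb3), taken by symbol from the 53465 genes of the count table, with 1 identifier for each. The study asked how the tumor suppressor Smad4 acts in PDAC cells that grow in different organs. KC-shSmad4 cells carry Ptf1a-Cre, the reporter mKate2 expressed with rtTA3, and a GFP-linked hairpin against Smad4 that doxycycline (Dox) switches on; they were derived from tumors of male mice with 1 of 2 hairpins, and the labels do not give the hairpin or cell line of a library. Cells were injected into the pancreas, into the spleen (with splenectomy) or into the tail vein of Foxn1nu female mice aged 6 to 8 weeks, which lack mature T cells, to form primary tumors, liver metastases and lung metastases. By the methods of the study, all hosts were fed Dox chow, which was withdrawn after 4 weeks (pancreas), 5 weeks (liver) or 6 weeks (lungs) in the groups labelled Smad4 on and kept in those labelled Smad4 off; mKate2+ cells were sorted 7 or 14 days later. The day 7 groups held 3 primary tumor libraries labelled off and 2 labelled on, 2 and 3 of liver metastases, and 4 and 2 of lung metastases. The day 14 groups held 2 and 3, 3 and 3, and 4 and 4, in the same order.

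Ligands of this family are made as membrane-bound precursors that proteases such as ADAM17 release from the cell surface. Areg, Ereg, Hbegf, Tgfa and Btc bind EGFR (Ereg, Hbegf and Btc also bind ERBB4), whereas Nrg1, a neuregulin, binds ERBB3 and ERBB4. Binding drives receptors into pairs, in which ERBB2, which has no known ligand, is the favoured partner and ERBB3, whose kinase is weak, recruits PI3 kinase. In the pancreas, signalling through EGFR is known for its part in acinar-to-ductal metaplasia and in the start of PDAC.

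The targeted gene went against the labels. Smad4 was at 77.9 to 132.1 CPM (a gene's count per 1000000 counts on all genes of that library) in the 18 libraries labelled Smad4 off (median 101.1) and at 14.4 to 23.2 CPM in the 17 labelled Smad4 on (median 17.8). Whether labels or treatments of these libraries were exchanged was not tested. Libraries are therefore named as labelled throughout, and a higher value in libraries labelled on is a higher value where Smad4 mRNA was lower. Library totals were 11885461 to 43571007 counts (median 19415320), and a floor of 3 counts lay at 0.0689 to 0.252 CPM; such floors cover counting error only. Sequencing was labelled single-end except for 1 paired-end library of the liver labelled off at day 7, which stood apart: its log2 CPM correlated with the 10 pancreas libraries at a median r of 0.949 and with the other 10 liver libraries at 0.892. Its summed acinar markers were at 312 CPM, against at most 0.62 CPM in the other liver libraries and 692 CPM or more in the pancreas. Whether it came from a liver metastasis was not tested. Counts on mt-Co3 were found in 10 liver and lung libraries and in 0 pancreas libraries. All 7 epithelial markers (Krt7, Krt8, Krt18, Krt19, Epcam, Cdh1 and Sox9) were detected in every library. Hepatocyte markers summed to at most 137 CPM in liver metastases and lung epithelial markers to at most 529 CPM in lung metastases.

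Areg, Ereg and Btc are neighbours on chromosome 5 of GRCm38, where Ereg (91074622 to 91093646, plus strand), Areg (91139599 to 91148432, plus strand) and Btc (91357261 to 91402994, minus strand) lie within 328 kb. Tgfa lies on chromosome 6 (86195223 to 86275719, plus strand), Egfr (16752203 to 16918158, plus strand) and Erbb2 (98412470 to 98437716, plus strand) lie on chromosome 11, and Erbb3 on chromosome 10 (128567523 to 128589652, minus strand). Of the 9 genes, 5 (Areg, Btc, Tgfa, Egfr and Erbb2) had a promoter entry in RefSeq for GRCm38. Those of Areg and Tgfa, which were higher in metastases, and of Egfr, which was lower there, are shown because these ligands bind this receptor; each line holds the 250 bases before the start that RefSeq gives, which for Tgfa is 1 base before the start given above, 5′ to 3′ on the gene's strand, in lower case. Capitals mark the letters CAGAC of a SMAD-binding element or its reverse complement GTCTG.
Areg (chr5:91139349-91139598, plus strand): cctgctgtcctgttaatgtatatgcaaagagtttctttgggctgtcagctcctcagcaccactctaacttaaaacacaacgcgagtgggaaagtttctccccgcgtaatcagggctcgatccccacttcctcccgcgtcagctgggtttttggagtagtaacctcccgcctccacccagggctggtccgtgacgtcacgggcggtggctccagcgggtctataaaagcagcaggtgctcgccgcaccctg
Tgfa (chr6:86194972-86195221, plus strand): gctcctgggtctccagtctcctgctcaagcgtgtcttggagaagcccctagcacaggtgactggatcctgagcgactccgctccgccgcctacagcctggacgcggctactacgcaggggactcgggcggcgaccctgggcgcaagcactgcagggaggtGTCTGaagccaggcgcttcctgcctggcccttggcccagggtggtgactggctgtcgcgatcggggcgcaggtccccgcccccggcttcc
Egfr (chr11:16751953-16752202, plus strand): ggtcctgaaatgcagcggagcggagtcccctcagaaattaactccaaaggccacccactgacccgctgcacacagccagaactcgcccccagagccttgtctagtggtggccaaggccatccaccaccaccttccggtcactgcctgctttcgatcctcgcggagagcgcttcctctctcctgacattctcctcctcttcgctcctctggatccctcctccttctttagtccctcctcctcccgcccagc
The Tgfa window holds 1 such match, which begins 90 bases before the RefSeq start, and the Areg and Egfr windows hold 0. Of all 32851 windows of this length, 42.2% hold CAGAC or GTCTG. The letters TGACTCA of an AP-1 site, or their reverse complement TGAGTCA, are in 0 of these 3 windows and in 4.46% of all windows. Both motifs were searched on both strands and do not overlap here. A match is a description of the letters and not a measured binding site.

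Hbegf and Areg were the most abundant ligand mRNAs. Per kilobase of gene model, the median level over the 35 libraries was 332 CPM per kb for Hbegf, which encodes heparin-binding EGF-like growth factor, and 144 CPM per kb for Areg, which encodes amphiregulin. The other ligands were far lower, at 8.68 CPM per kb for Btc (betacellulin), 4.28 for Tgfa, 2.08 for Ereg (epiregulin) and 0.576 for Nrg1. Hbegf ranked first among the 6 ligands in 33 of 35 libraries and Areg in the other 2, which were 1 liver and 1 lung library. Hbegf made up 29.9% to 77% of the summed ligand level per kb (median 65.7%), and Areg 18.6% to 66.8% (median 29.7%). Of the receptors, Erbb2 was at 23.7 CPM per kb, Erbb3 at 13.7 and Egfr at 10.2. Erbb2 ranked first in 27 libraries, Erbb3 in 7, all of liver metastases, and Egfr in 1 primary tumor. Erbb3 made up a median of 44.6% of the summed receptor level in the liver, 28.8% in the lungs and 16.2% in the pancreas, and Egfr made up 11.6%, 18.5% and 37.1%. All 9 genes were above the floor in all 35 libraries and passed the filter on low counts in every fit; the lowest counts were 15 for Ereg and 25 for Nrg1.

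**Figure D1:**
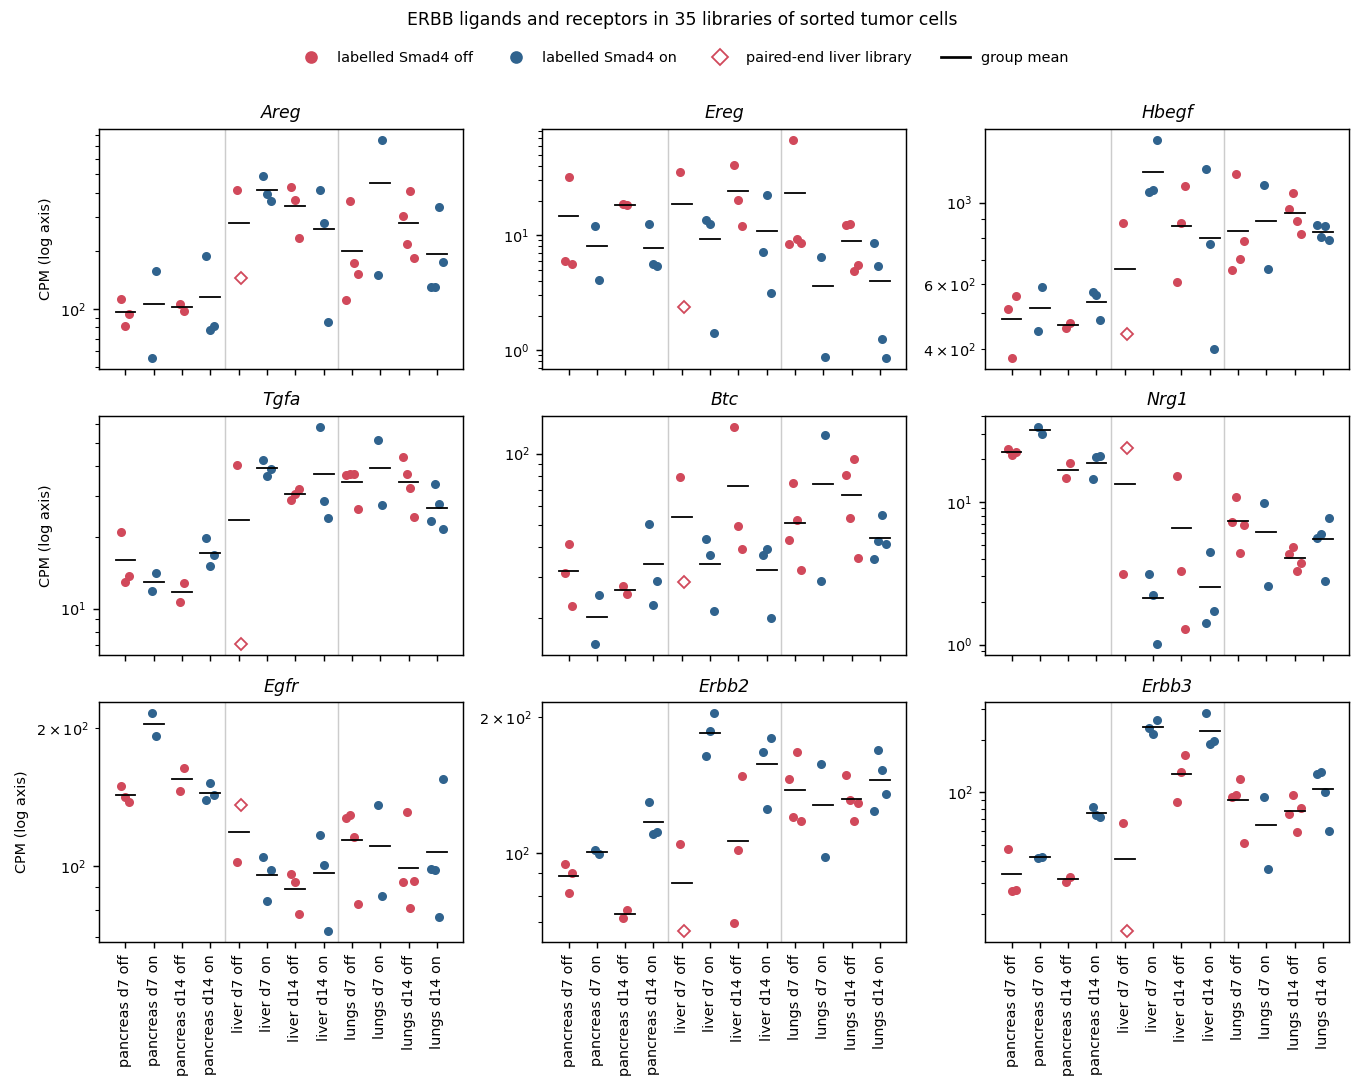
Level of each ligand and receptor in CPM (log axis) in the 12 groups of organ, day (d7, d14) and Smad4 label; each point is a library, the bar is the group mean and the open diamond is the paired-end liver library. Nrg1 and Egfr reached their highest levels in pancreas libraries, and Areg, Tgfa, Hbegf and Erbb3 were lower there than in most liver and lung libraries.

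Between organs, 15 of 54 tests of these genes were called, 11 higher and 4 lower, against 1 of 54 between labels and 0 of 54 between days. Of all genes tested, 4.33% to 22.4% were called per organ comparison, 0.0% to 4.64% per label comparison and 0.0% to 0.0422% per day comparison. The kinds of comparison thus differed over all genes, and nothing about these 9 genes is read from the contrast of their counts. Organs were compared within each label, with both days weighted equally, and a call required a change of more than 2-fold together with an adjusted p under 0.05 (edgeR's quasi-likelihood test, Benjamini-Hochberg adjustment over all genes tested); errors of log2 fold changes are SE. Of the 9 genes, liver against pancreas called 2 in the libraries labelled off (8.53% of 16606 genes tested were called) and 4 in those labelled on (22.4% of 16751). Lungs against pancreas called 4 (18.3%) and 3 (13.5%). Liver against lungs called 0 in the libraries labelled off (4.33%; 1 of the 9 had an unadjusted p under 0.05, and DESeq2 also called 0) and 2 in those labelled on (11.2%). Without the paired-end liver library, the liver against pancreas count labelled off was 5 (14.2% of 17572 genes tested). In these sorted bulk populations, fewer cells of a type and less RNA per cell cannot be told apart.

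Areg was called higher in metastases in 3 of the 4 comparisons with the pancreas. It was at 112.8, 81.65, 93.42, 105.8 and 97.75 CPM in the 5 pancreas libraries labelled off and at 412.6, 144.3, 428.6, 368 and 234.7 CPM in the 5 liver libraries labelled off, of which the second is the paired-end one. In the 8 lung libraries labelled off, Areg ranged from 111 to 408 CPM (median 201). Each liver library was above each pancreas library, while the lowest lung library lay within the pancreas range. The difference was 3.11-fold in liver (log2 1.64 ± 0.36, adjusted p = 0.0104; 3.79-fold without the paired-end library, adjusted p = 0.00142) and 2.19-fold in lungs (1.13 ± 0.33, adjusted p = 0.0148). In libraries labelled on, Areg was at 55.58, 156.9, 188.9, 77.41 and 80.98 CPM in the pancreas, at 85.2 to 492 CPM in the 6 liver libraries (median 378) and at 129 to 754 CPM in the 6 lung libraries (median 162). There the liver difference was called (1.61 ± 0.52, adjusted p = 0.0235), with an overlap of the groups through 1 liver library of day 14, and the lung difference was not (1.48 ± 0.53, adjusted p = 0.0517), while DESeq2 called it (1.49, adjusted p = 0.00978). Among libraries labelled off, the liver call was lost without liver day 7 replicate 1 or pancreas day 14 replicate 2 (adjusted p up to 0.0629) and the lung call without lungs day 7 replicate 2, pancreas day 14 replicate 1 or pancreas day 14 replicate 2 (up to 0.0608). Among libraries labelled on, the liver call was lost without pancreas day 7 replicate 1, pancreas day 14 replicate 2 or 3, or liver day 14 replicate 1 (up to 0.118) and with no filter on low counts (0.0774). On single days with all libraries, Areg was called in 1 of these 3 comparisons, in liver labelled off at day 14 (1.76, adjusted p = 0.0257). At day 7 the liver value labelled off was 1.59 (adjusted p = 0.399). Without the paired-end library, which left 1 liver library labelled off at day 7, the day 7 value was 2.10.

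Tgfa, which encodes transforming growth factor alpha, was also called higher in 3 of these 4 comparisons. It was at 21.14, 13.01, 13.79, 10.68 and 12.86 CPM in pancreas libraries labelled off and at 11.84, 14.11, 19.85, 15.13 and 16.8 CPM in those labelled on. All other liver and lung libraries were between 21.8 and 58.8 CPM, whereas the paired-end liver library was at 7.06 CPM, the lowest of the 35. The highest pancreas library (21.14 CPM) thus lay below the lowest of these liver and lung libraries. Tgfa was 2.26-fold higher in lungs than in pancreas among libraries labelled off (1.17 ± 0.28, adjusted p = 0.00467) and 2.16-fold among those labelled on (1.11 ± 0.22, adjusted p = 0.00214). In liver it was 2.64-fold higher among libraries labelled on (1.40 ± 0.22, adjusted p = 0.000141). Among libraries labelled off, the liver difference was below the fold threshold with the paired-end library (0.95 ± 0.30, adjusted p = 0.0456) and above it without (1.34 ± 0.17, adjusted p = 9.25e-05). It fell to 0.19 (adjusted p = 0.499) without the other liver library of day 7, which left the paired-end one alone in its group. It was called without pancreas day 7 replicate 1 (1.06) or lungs day 7 replicate 3 (1.02) and on day 14 alone (1.36, adjusted p = 0.00518). With the presence of mt-Co3 counts as a covariate it was also called (1.10, adjusted p = 0.0153). On day 7 alone it was not called (0.60, adjusted p = 0.653). Without the paired-end library, which left 1 liver library labelled off at day 7, the day 7 value was 1.34. The lung call labelled on fell under 2-fold without lungs day 7 replicate 1 (0.94), while the lung call labelled off and the liver call labelled on held without any 1 library. On single days, the lung difference labelled off was called at day 14 (1.43, adjusted p = 0.00323) and at day 7 without the paired-end library (1.01, adjusted p = 0.00518), but not with it in the fit (1.02, adjusted p = 0.152), and that labelled on was called at day 7 (1.57, adjusted p = 0.0244) and not at day 14 (0.62, adjusted p = 0.18).

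Hbegf (chromosome 18, 36504929 to 36515805, minus strand) was higher in metastases at an adjusted p under 0.05 in 3 of 4 comparisons, by less than 2-fold with both days and all libraries. Among libraries labelled off, primary tumors had 475 ± 66.7 CPM (SD, n = 5), liver metastases 782 ± 262 CPM (n = 5) and lung metastases 886 ± 183 CPM (n = 8). Among libraries labelled on the levels were 529 ± 61.9 (n = 5), 1007 ± 377 (n = 6) and 852 ± 151 CPM (n = 6). All 14 lung libraries (657 to 1196 CPM) were above all 10 pancreas libraries (378 to 588 CPM). The differences from the pancreas passed the adjusted p threshold at under 2-fold in lungs (0.77 ± 0.20, adjusted p = 0.00779 labelled off; 0.71 ± 0.23, adjusted p = 0.038 labelled on) and in liver labelled on (0.95 ± 0.23, adjusted p = 0.00437). The last lay close to 2-fold and was called on day 7 alone (1.25, adjusted p = 0.0318), with the mt-Co3 covariate (1.01), without liver day 14 replicate 3 (1.11) and without pancreas day 7 replicate 2 (1.04), while on day 14 alone it was 0.62 (adjusted p = 0.192). In liver labelled off the value was 0.66 ± 0.22 (adjusted p = 0.0536) and, without the paired-end library, 0.86 ± 0.22 (adjusted p = 0.011).

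Btc varied widely within groups. It was at 22.6 to 41.5 CPM in pancreas libraries labelled off and at 28.4 to 130 CPM in liver and 32.1 to 95.1 CPM in lung libraries labelled off, which overlap. Btc was called in lungs against pancreas labelled on (2.26-fold, 1.17 ± 0.37, adjusted p = 0.0303), where 1 lung library of day 7 was at 120.5 CPM and the other 5 at 28.77 to 55.1 CPM, and the groups overlapped. Without that library the log2 fold change was 0.39, and the call was also lost without pancreas day 7 replicate 1 or 2, pancreas day 14 replicate 2 or 3 or lungs day 14 replicate 3 (adjusted p up to 0.362), with the mouse number as a block (adjusted p = 0.0537), with the mt-Co3 covariate (0.101) and with no filter on low counts (0.104). On day 7 alone it was 1.94 (adjusted p = 0.164) and on day 14 alone 0.37 (adjusted p = 0.452). In liver labelled off, Btc gave 1.11 ± 0.39 (adjusted p = 0.0679) with the paired-end library and 1.39 ± 0.40 (adjusted p = 0.0214) without it, and with all libraries it was called by DESeq2 (1.15, adjusted p = 0.0215) and with the mt-Co3 covariate (1.28, adjusted p = 0.0332). That covariate also gave a call in lungs labelled off (1.10, adjusted p = 0.0285). Areg and Btc had a Pearson correlation of 0.73 over the 35 libraries on log2(CPM + 0.5), a description over libraries that share organs.

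Ereg, the ligand next to Areg, did not follow it. It ranged from 0.858 to 67.2 CPM over the 35 libraries, and its correlation with Areg on the same scale was 0.037. In the pancreas labelled off Ereg was at 5.979, 32.28, 5.599, 18.63 and 18.14 CPM. The liver libraries labelled off held 35.05, 2.355, 40.95, 20.12 and 12.12 CPM, of which the second is the paired-end one. None of the 6 organ comparisons passed for Ereg, with log2 fold changes from −1.10 to 1.46 and SE of 0.68 to 0.77. Ereg was at 0.858 to 12.1 CPM (median 2.75) in the 10 libraries with mt-Co3 counts and at 5.42 to 67.2 CPM (median 12.5) in the 15 liver and lung libraries without them. With presence of mt-Co3 counts as a covariate, Ereg was called higher in liver than in lungs labelled on (1.15, adjusted p = 0.0365) and lower in libraries labelled on in the liver at day 7 (−1.29, adjusted p = 0.0473). The antisense gene Gm19610 (91051871 to 91074773, minus strand) overlaps the first 152 bases of Ereg at 0 to 2.62 CPM. The strand setting of the counting is not given in the sources used here, so reads in that overlap may have been assigned to either gene or to neither.

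Nrg1 (chromosome 8, 31814551 to 32884029, minus strand), the ligand of ERBB3, was called lower than in the pancreas in 3 of 4 comparisons, and was the ligand with calls in that direction. It was at 23.31, 21.28, 22.16, 14.64 and 18.57 CPM in pancreas libraries labelled off and at 33.58, 29.78, 14.45, 20.63 and 20.9 CPM in those labelled on. The 6 liver libraries labelled on held 1.00 to 4.44 CPM (median 1.98), the 8 lung libraries labelled off 3.27 to 10.8 CPM (median 4.61) and the 6 lung libraries labelled on 2.58 to 9.76 CPM (median 5.77), all below every pancreas library. In libraries labelled on, Nrg1 was 10.2-fold lower in liver than in pancreas (log2 −3.35 ± 0.40, adjusted p = 1.61e-05) and 4.24-fold lower in lungs (−2.09 ± 0.40, adjusted p = 0.00189). In libraries labelled off it was 3.88-fold lower in lungs (−1.96 ± 0.51, adjusted p = 0.00823). On single days, the liver difference labelled on was called on both, the lung difference labelled on at day 14 (adjusted p = 0.0236, against 0.0867 at day 7), and the lung difference labelled off on neither with all libraries (−1.67 and −2.14, adjusted p = 0.0948 and 0.101). Without the paired-end library, day 7 was called for lungs labelled off (−1.68, adjusted p = 0.00391). For liver labelled off, where that left 1 library at day 7 (3.098 CPM), the day 7 value was −2.84. The 5 liver libraries labelled off were at 3.098, 23.69, 15.05, 3.273 and 1.284 CPM, where the second, at a pancreas-like level, is the paired-end one. Liver against pancreas labelled off gave −0.97 ± 0.58 (adjusted p = 0.277) with that library and −2.08 ± 0.61 (adjusted p = 0.0229) without it. Nrg1 was also lower in liver than in lungs labelled on (−1.26 ± 0.37, adjusted p = 0.027), with overlapping groups, a call lost without liver day 7 replicate 2 or 3, liver day 14 replicate 1 or 3, lungs day 7 replicate 1 or lungs day 14 replicate 4 (adjusted p up to 0.191; −0.75 without lungs day 7 replicate 1) and with the mouse number as a block (adjusted p = 0.0723). It was also lost with no filter on low counts (adjusted p = 0.0558), in 1 model of all 12 groups (0.0734) and on day 7 or day 14 alone (0.177 and 0.222).

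Erbb3, the receptor of Nrg1, was called higher in metastases in 3 of 4 comparisons. In libraries labelled off it was at 47.05, 27.14, 27.46, 30.67 and 32.55 CPM in the pancreas and at 66.44, 15.92, 87.38, 131.6 and 164.5 CPM in the liver, of which the second is the paired-end library and the lowest of the 35. The 8 lung libraries labelled off lay between 51.2 and 120 CPM (median 87.6), all above the pancreas. Erbb3 was 2.18-fold higher in liver (1.12 ± 0.30, adjusted p = 0.0222; 1.48 ± 0.24, adjusted p = 0.000532 without the paired-end library) and 2.31-fold higher in lungs (1.21 ± 0.27, adjusted p = 0.00363). The liver call with all libraries was lost without pancreas day 7 replicate 2 or 3, pancreas day 14 replicate 1 or 2 or liver day 7 replicate 1 (adjusted p up to 0.172), and the lung call was kept without any 1 library. By day, the liver difference was 0.33 at day 7 (adjusted p = 0.816) and 1.99 at day 14 (adjusted p = 0.00279, called). Without the paired-end library, which left 1 liver library labelled off at day 7, the day 7 value was 0.98. The lung difference was 1.33 at day 7 (adjusted p = 0.069; 1.31, adjusted p = 0.0097, called, without the paired-end library) and 1.20 at day 14 (adjusted p = 0.0116, called). In libraries labelled on it was at 41.87, 42.62, 82.28, 73.75 and 72.38 CPM in the pancreas, at 190 to 285 CPM in the liver (median 226) and at 36.1 to 131 CPM in the lungs (median 97.4). The liver libraries labelled on formed a separate upper range, 4.22-fold over pancreas (2.08 ± 0.23, adjusted p = 9.31e-06) and 2.93-fold over lungs (1.55 ± 0.22, adjusted p = 0.000325), and both calls held without any 1 of the 17 libraries. Lungs against pancreas was not called there (0.53 ± 0.22, adjusted p = 0.0924).

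Erbb2, the shared partner receptor, was higher than in the pancreas at an adjusted p under 0.05 in 2 of 4 comparisons, with smaller differences. Among libraries labelled off, primary tumors had 82.4 ± 9.88 CPM (SD, n = 5), liver metastases 98.2 ± 32.8 CPM (n = 5) and lung metastases 135 ± 17.8 CPM (n = 8), and the levels were 110 ± 11.9 (n = 5), 171 ± 26.7 (n = 6) and 139 ± 26.1 CPM (n = 6) labelled on. The adjusted p threshold was passed at under 2-fold in lungs labelled off (0.60 ± 0.14, adjusted p = 0.00354), in liver labelled on (0.71 ± 0.13, adjusted p = 0.000699) and in liver against lungs labelled on (0.38 ± 0.13, adjusted p = 0.0482). All 8 lung libraries labelled off were above all 5 pancreas libraries labelled off.

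Egfr, the receptor of the ligands other than Nrg1, was lower in metastases of both organs. It was at 149.9, 141.5, 138.2, 145.8 and 163.6 CPM in pancreas libraries labelled off and at 216, 192.9, 139.4, 151.8 and 143.1 CPM in those labelled on. Liver libraries held 72.0 to 136 CPM and lung libraries 77.4 to 155 CPM, and 1 lung library of the 25 liver and lung libraries, labelled on at day 14, lay above the lowest pancreas library. The log2 differences were small but passed the adjusted p threshold in liver (−0.52 ± 0.15, adjusted p = 0.0308 labelled off; −0.80 ± 0.17, adjusted p = 0.00179 labelled on) and in lungs (−0.64 ± 0.13, adjusted p = 0.00184; −0.66 ± 0.18, adjusted p = 0.0136), all at under 2-fold with both days. On day 7 alone, the liver difference labelled on was past 2-fold (−1.09, adjusted p = 0.00956). The liver difference labelled off missed the adjusted p threshold with the mt-Co3 covariate (0.0558), with no filter on low counts (0.0904), in 1 model of all 12 groups (0.0568) and on day 7 alone (0.827). Single days also missed it in liver labelled on at day 14 (−0.54, adjusted p = 0.149) and in lungs labelled off at day 7 (−0.42, 0.159). Lungs labelled on missed it at day 7 (−0.91, 0.066) and day 14 (−0.43, 0.243). Labelled off at day 14, it was passed in liver (−0.81, 0.0342) and lungs (−0.74, 0.0359).

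**Figure D2:**
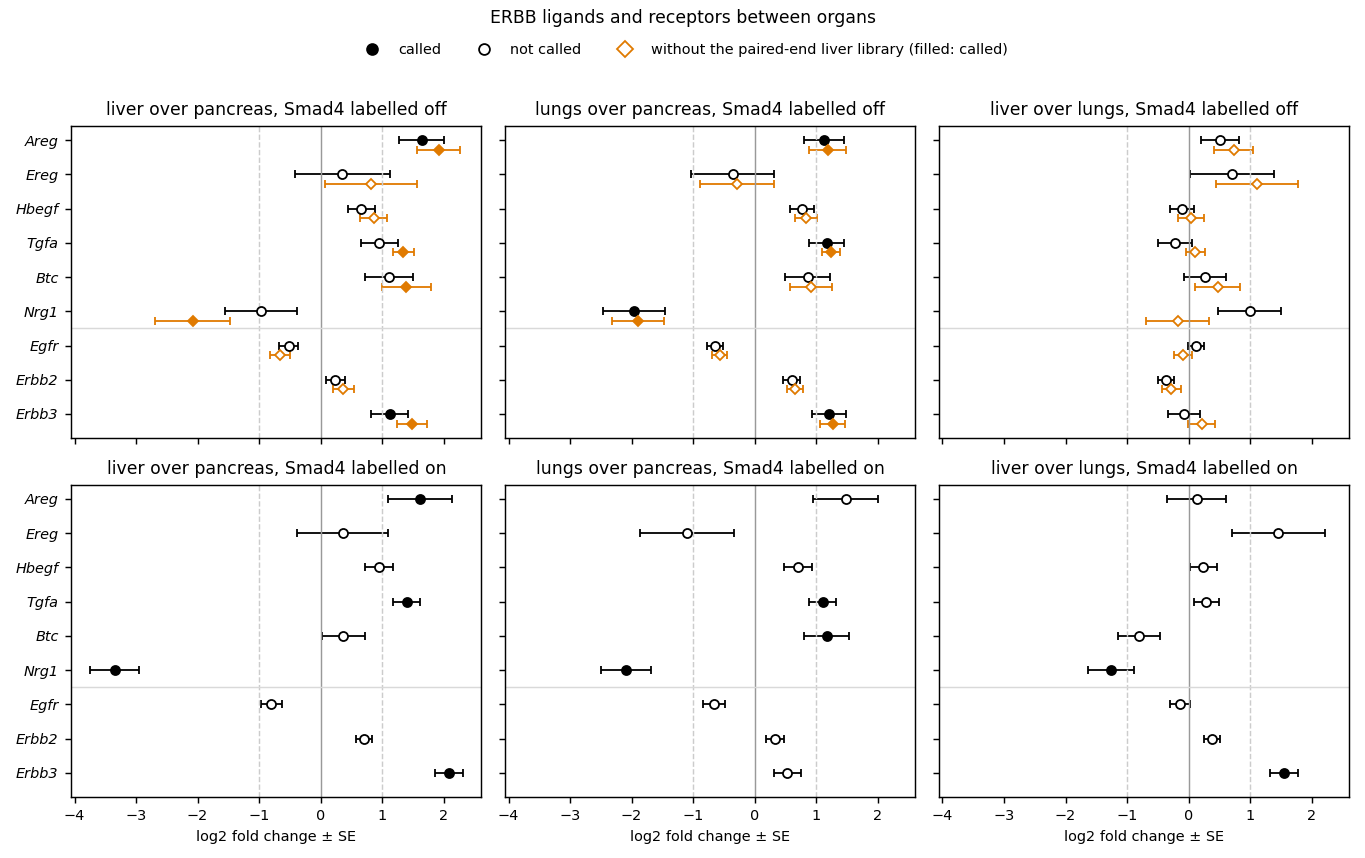
Log2 fold change with SE of each ligand (upper 6 rows) and receptor (lower 3 rows) between organs, in libraries labelled Smad4 off (upper panels) and on (lower panels); filled symbols were called (dashed lines mark 2-fold), and orange diamonds leave out the paired-end liver library. Nrg1 in liver over pancreas labelled off moved from −0.97 to −2.08 without that library, and Erbb3 in liver over pancreas labelled on stood at 2.08.

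Cell type markers differed between the organs as well. The 6 fibroblast markers (Col1a1, Col1a2, Col3a1, Dcn, Lum and Pdgfrb) summed to 8990 to 24230 CPM in the pancreas, 30360 CPM in the paired-end liver library, 229 to 4203 CPM in the other liver libraries and 148 to 2199 CPM in the lungs, and each was above 0 in every library. The 7 epithelial markers summed to 2656 to 8265 CPM in the pancreas, 3426 CPM in the paired-end library, 12460 to 16570 CPM in the other liver libraries and 6978 to 13920 CPM in the lungs. Sox9 did not follow this sum in the liver. Its medians were 178 CPM in the pancreas, 162 CPM in the other liver libraries and 353 CPM in the lungs. In the paired-end library Sox9 was at 221 CPM. Acinar markers, at 692 to 3080 CPM in the pancreas, were at 0.762 CPM or less in the lungs. Single libraries did not all follow the order of the organs. In 1 liver library labelled off at day 14, Erbb2 was at 69.97 CPM, below every pancreas library. Its epithelial markers summed to 15240 CPM and its fibroblast markers to 229 CPM. In 1 labelled on at day 14, Areg was at 85.23 and Hbegf at 399 CPM, both within the pancreas range. That library had an epithelial sum of 14090 CPM and a fibroblast sum of 2908 CPM, against fibroblast sums of 332 and 581 CPM in the rest of its group. Whether these markers came from cells other than tumor cells, and their part in the organ differences of the 9 genes, was not tested.

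**Figure D3:**
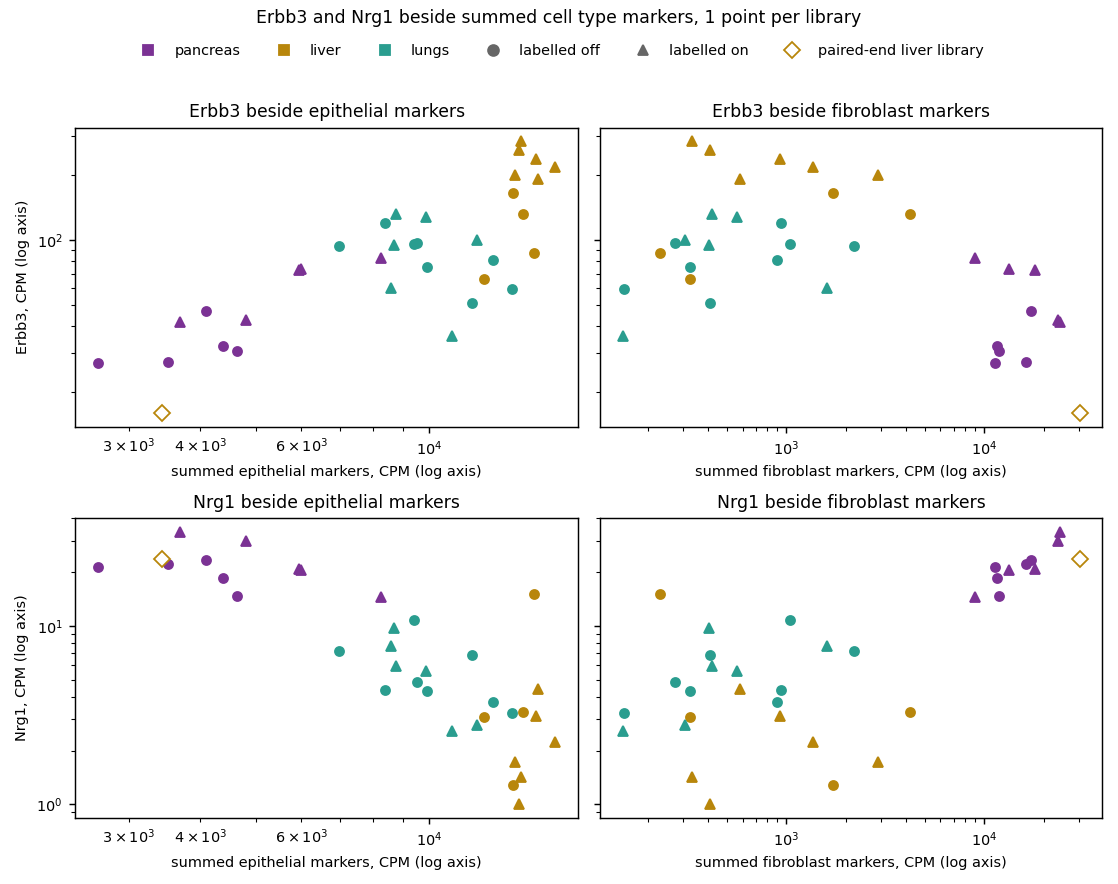
Erbb3 (upper) and Nrg1 (lower) in CPM beside the summed CPM of 7 epithelial (left) and 6 fibroblast (right) markers, all axes logarithmic; each symbol is a library, colored by organ. The paired-end liver library lies among or beyond the pancreas libraries in all panels, at 30360 CPM of fibroblast markers.

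Between the Smad4 labels, 1 of 54 tests of these genes (9 genes in 6 comparisons of an organ and day) was called. Erbb3 was at 82.28, 73.75 and 72.38 CPM in pancreas libraries labelled on at day 14 and at 30.67 and 32.55 CPM in those labelled off, without overlap. The difference was 2.25-fold (1.17 ± 0.10, adjusted p = 0.000849; 4.64% of 14234 genes tested were called) and was called without any 1 of the 5 libraries (in the 2 fits with 1 library labelled off left, it is assumed to vary like those labelled on), but not in 1 model of all 12 groups (1.15, adjusted p = 0.356). In these libraries Smad4 mRNA was lower where Erbb3 was higher. Erbb2 moved in the same direction there, from 71.54 and 74.57 CPM to 129.5, 110.3 and 111.4 CPM (0.59 ± 0.10, adjusted p = 0.00823), under 2-fold. Epithelial markers summed to 4374 to 4626 CPM in the libraries labelled off and to 5944 to 8265 CPM in those labelled on, and fibroblast markers to 11590 to 11920 and 8990 to 18020 CPM; their part in the Erbb3 difference was not tested. In the pancreas at day 7, Erbb3 differed by 0.30 ± 0.24 (adjusted p = 0.498).

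Liver metastases at day 7 gave a larger Erbb3 difference with a larger error. Erbb3 was at 235.4, 217 and 260.9 CPM in libraries labelled on, against 66.44 CPM and, in the paired-end library, 15.92 CPM in those labelled off. The groups did not overlap, and the log2 difference was 2.43 ± 0.59 (adjusted p = 0.0848; 0.444% of 16007 genes tested were called). Of the 9 genes, edgeR called 0 there and 3 had an unadjusted p under 0.05, and DESeq2 called Erbb3 and Nrg1. The model of all 12 groups, which includes the paired-end library, called Erbb3 (2.52, adjusted p = 0.000184), Nrg1 (−2.84, adjusted p = 0.00678) and Erbb2. Without the paired-end library, Erbb3 in the liver fit was 1.78 ± 0.23 (adjusted p = 0.0288, called; 4.98% of 17266 genes called), in a fit where the lone remaining library labelled off is assumed to vary like the libraries labelled on. Erbb2 gave 0.97 ± 0.23 (adjusted p = 0.0836) and, without that library, 0.76 ± 0.22 (adjusted p = 0.113). For Nrg1 the value fell in size from −2.90 ± 0.97 (adjusted p = 0.137) to −0.61 ± 0.65 (adjusted p = 0.589), so the larger value rested on the paired-end library. Erbb3 at day 14 was at 285.2, 190.2 and 198.4 CPM labelled on and 87.38, 131.6 and 164.5 CPM labelled off in the liver, also without overlap (0.76 ± 0.26, adjusted p = 0.427), where edgeR called 0 of 14947 genes (0.0%), 1447 had an unadjusted p under 0.05, and DESeq2 called 0 of the 9 genes. Hepatocyte markers in these day 7 liver libraries summed to 22.7 and 1.23 CPM labelled off (the second is the paired-end one) and to 63.2 to 136.6 CPM labelled on, macrophage and neutrophil markers to 24.4 and 15.3 CPM and to 54.5 to 58.0 CPM, and epithelial markers to 12460 and 3426 CPM and to 14350 to 16570 CPM. Fibroblast markers were at 323 and 30360 CPM labelled off and at 409.9 to 1358 CPM labelled on. Whether the markers came from cells other than tumor cells, and their part in the label differences, was not tested. In the lungs, Erbb3 differed by −0.39 ± 0.37 at day 7 and by 0.38 ± 0.23 at day 14, with adjusted p of 0.998 and 0.644.

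In the fits within an organ and day, edgeR called 0 ligands between labels. Nrg1 was called in the liver at day 7 in the model of all 12 groups, and Ereg there with the mt-Co3 covariate, as given above. The fitted Ereg values were negative in all 6 comparisons and called in 0, with log2 values of −0.90, −1.12 and −2.69 in pancreas, liver and lungs at day 7 and −1.32, −1.28 and −1.16 at day 14, SE of 0.37 to 1.29 and adjusted p of 0.0709 to 0.988. In the pancreas at day 7, Ereg was at 5.599, 5.979 and 32.28 CPM labelled off and at 4.106 and 11.97 CPM labelled on. The medians there (5.979 and 8.039 CPM) ran the other way. Lung libraries labelled off at day 7 had a median of 8.90 CPM with 1 library at 67.2 CPM, against 0.879 and 6.39 CPM labelled on. Ereg was not called in any of these fits. In the pancreas at day 14 its groups did not overlap (18.63 and 18.14 CPM labelled off; 12.42, 5.575 and 5.41 CPM labelled on), and DESeq2 called the difference (−1.33, adjusted p = 0.00305). In the liver at day 7 the Ereg value turned to 1.71 without the first library labelled off, which left the paired-end library as the only one labelled off. Areg, Hbegf, Tgfa and Btc each had values of both signs over the 6 comparisons. Both edgeR and DESeq2 called 0 of the 9 genes in the pancreas at day 7 (1.33% of 14439 genes tested were called by edgeR), in the lungs at day 7 (0.0% of 15193) and in the lungs at day 14 (0.0271% of 14751). There 2, 0 and 1 of the 9 genes had an unadjusted p under 0.05 in edgeR. At day 7 in the pancreas, Nrg1 and Egfr each differed by 0.49 (SE 0.12 and 0.10, adjusted p = 0.0815 and 0.0647).

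**Figure D4:**
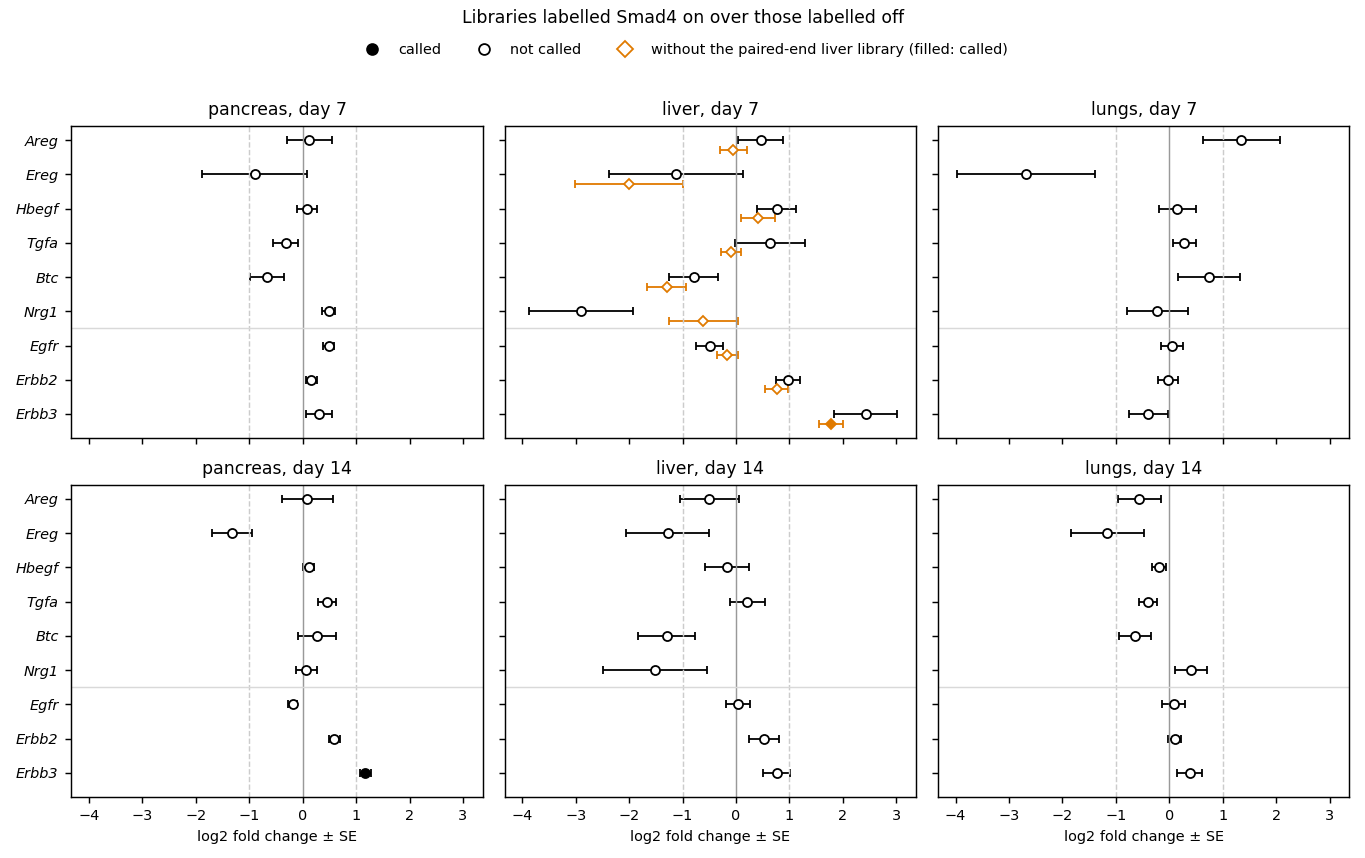
Log2 fold change with SE of each gene in libraries labelled Smad4 on over those labelled off (which is lower over higher Smad4 mRNA), by organ and day; filled symbols were called (dashed lines mark 2-fold), and orange diamonds leave out the paired-end liver library. Erbb3 in the pancreas at day 14 (1.17) is the only filled circle, and Erbb3 in the liver at day 7 is filled without the paired-end library (1.78).

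Whether the label difference itself differed between organs was tested by interaction in 6 fits of a pair of organs and a day. Of these 54 tests, 0 were called by edgeR, 10 had an unadjusted p under 0.05, and DESeq2 called 4, all on day 7. For Erbb3 at day 7, the liver difference minus the lung difference was 2.87 ± 0.75 (adjusted p = 0.0721; 1.86% of 16369 genes tested were called), and 2.22 ± 0.61 (adjusted p = 0.12) without the paired-end library. The model of all 12 groups called it (2.93, adjusted p = 0.00235). DESeq2 called this one (2.85, adjusted p = 0.00226), with Erbb2 in the same pair of organs and Nrg1 and Erbb3 between pancreas and liver, all of which include the paired-end library. Between pancreas and liver at day 7, 0.814% of 16344 genes were called, and in the other 4 interactions 0.0%.

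Day 7 and day 14 were compared within each organ and label. Of 54 tests, 0 were called by edgeR, 4 had an unadjusted p under 0.05, and DESeq2 called 1, which was Erbb3 in liver labelled off. Erbb3 there was 3.02-fold higher at day 14 (SE 0.44 on the log2 scale, adjusted p = 0.127; 0.0422% of 16606 genes tested were called), and without the paired-end library the log2 difference was 1.00 ± 0.40 (adjusted p = 0.713). The next lowest adjusted p of the 9 genes there was 0.256, for Egfr (−0.51 ± 0.21). In the other 5 comparisons of days, 0.0% of genes were called.

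Beyond the 9 genes, 34 genes around the pathway were followed: 5 other ligands and the receptor Erbb4, proteases and their partners that shed ligands, adaptors, receptor brakes and outputs of the MAPK cascade. Erbb4 had at most 8 counts in a library and Nrg3 had 0 in all 35, so neither was tested, and ERBB3 ligands were represented by Nrg1 and Nrg2. Nrg2, a neuregulin, was at 0.251 to 7.81 CPM in liver labelled on and at 0 to 0.14 CPM (at most 2 counts) in pancreas labelled on, which is at or under the floor. Epgn, whose product epigen binds EGFR and whose gene lies beside Ereg, was at 0.108 to 2.49 CPM in liver labelled on and at 0 to 0.244 CPM (at most 5 counts) in lungs labelled on, which is around the floor, so that it passed the filter through its liver level. Nrg4 was 3.08-fold higher in lungs than in pancreas labelled off (1.62 ± 0.42, adjusted p = 0.00793). Grb7, an adaptor that binds ERBB2 and lies close to it in the genome, was 2.57-fold higher in liver than in pancreas labelled on (1.36 ± 0.15, adjusted p = 7.09e-06) and 2.18-fold higher in pancreas labelled on at day 14 (1.13 ± 0.11, adjusted p = 0.00138), as Erbb3 was. Rhbdl2, a rhomboid protease, was 2.06-fold higher in liver than in pancreas labelled on (1.04 ± 0.12, adjusted p = 1.67e-05), and Adam10 and Adam17 were called in 0 of the 6 organ comparisons.

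Single receptor brakes were called lower than in the pancreas, and single outputs of the MAPK cascade were called in both directions. Of 6 brakes, 1 and 2 were called lower in liver and lungs labelled off (8.53% and 18.3% of all genes tested were called). Labelled on, 1 and 2 were called lower in liver and lungs (22.4% and 13.5%). Comparisons within a label share pancreas libraries, and nothing about the brakes as a group is read from these counts. Lrig1, whose product promotes the loss of ERBB receptors, was 3.32-fold lower in lungs than in pancreas labelled off (−1.73 ± 0.31, adjusted p = 0.000846), and Lrig3 was 2.59-fold lower (−1.37 ± 0.24, adjusted p = 0.000737). Etv5, a transcription factor that ERK signalling induces, was 3.01-fold lower in liver than in pancreas labelled on (−1.59 ± 0.13, adjusted p = 1.28e-06) and 2.20-fold lower in lungs labelled off (−1.14 ± 0.17, adjusted p = 0.00019). Etv4 and Spry4 were also lower in liver labelled on (−1.09 ± 0.16 and −1.03 ± 0.19). Dusp5, a nuclear ERK phosphatase, went the other way, at 2.68-fold higher in lungs labelled off (1.42 ± 0.29, adjusted p = 0.00179). In lungs against pancreas labelled on, 1 of 10 MAPK outputs was called higher and 0 lower, with a median of 0.13. Of 32 list genes tested, 1 higher and 2 lower were called in liver against pancreas labelled off (8.53% of all genes tested were called; 4 and 4, beside 14.2%, without the paired-end library), 3 and 3 in lungs against pancreas labelled off (18.3%), 4 and 4 in liver against pancreas labelled on (22.4%), and 2 and 2 in lungs against pancreas labelled on (13.5%). The list medians on the log2 scale were −0.14, −0.21, −0.12 and −0.04, beside medians over all genes tested of 0.013, −0.003, 0.044 and 0.042. Liver against lungs called 0 of 32 labelled off (4.33% of all genes) and 2 higher and 1 lower labelled on (11.2%). The calls labelled on include Nrg2 and Epgn, each at a few counts in at least 1 of the organs compared, and nothing about the lists is read from these counts. Between labels, Etv4 was 2.89-fold lower in liver labelled on at day 7 (−1.53 ± 0.16, adjusted p = 0.0477) and Nrg4 2.41-fold higher in pancreas labelled on at day 14 (1.27 ± 0.28, adjusted p = 0.0232). These lists were chosen with earlier results of these data known.

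The genes whose levels ran most like each of the 9 were found by Pearson correlation of log2(CPM + 0.5) over the 35 libraries, which share organs and labels, among 17547 genes. For Erbb3 they were Cnksr1 and Tmprss2 (r of 0.97 each) and for Erbb2 Gltp and Dffa (0.95 each). For Tgfa they were Chmp4c and Arhgap27 (0.91 each), for Hbegf Atf3 and Epha2 (0.91 and 0.90), and for Areg Plaur and F3 (0.88 and 0.87). The gene most like Btc was Wdr36 (0.93) and that most like Nrg1 was Fermt2 (0.91). They were for Egfr Sesn3 and Cdon (0.86 each), and for Ereg Lrrfip1 and Gm15564 (0.76 and 0.75), the lowest of the 9. Among the 9 genes, Hbegf and Tgfa correlated at 0.83, Erbb2 and Erbb3 at 0.82, and Nrg1 and Egfr at 0.81, whereas Nrg1 and Tgfa were at −0.74 and Nrg1 and Erbb3 at −0.74. These values describe levels across organs.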

How the data were processed

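Gene counts of 35 poly(A), stranded, single-end libraries (1 labelled paired-end) were used as the authors deposited them: whole-number counts per Ensembl gene, not normalized, from reads processed with FastQC 0.11.5, Trimmomatic 0.36, STAR 2.5.3a and featureCounts 1.6.3 on GRCm38 (mm10) according to the submitters' processing notes. How the paired-end library was counted, and the strand setting, are not given in the sources used here. Library totals were 11885461 to 43571007 counts, and no pair of libraries held identical values.

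Groups were taken from the sample labels. Counts were compared with edgeR 4.0.16 (R 4.3.3; TMM, filterByExpr at a minimum count of 10 and total of 15, quasi-likelihood test with robust estimates, Benjamini-Hochberg adjustment over all genes tested) and called past 2-fold with an adjusted p under 0.05. Labels were compared within each organ and day, organs and days within each label, and interactions within pairs of organs. CPM used library totals, and likeness used log2(CPM + 0.5). Alternatives were DESeq2 1.42.0, its size factors, other filters, a covariate for libraries with mt-Co3 counts, the mouse number as a block, 1 model of all 12 groups, single days and leaving out each library. The procedures were tested on simulated data. Mouse numbers in the labels are replicates; since separate cultures are not named, p-values measure the spread between these samples. Deviations of same-numbered libraries of the 2 labels correlated at over 0.1 in every pair in the liver at day 14 (r of 0.12 to 0.55) and the lungs at day 14 (0.48 to 0.55), at 0.03 and 0.04 in the pancreas at day 14, and at −0.31 to 0.34 at day 7. Pairs with different numbers reached similar values (up to 0.393 and 0.58 in the liver and lungs at day 14), and the labels do not say what a shared number marks.

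Named genes were the 9 members, the called genes of the pathway lists and the 2 genes most like each member; some items are not reported here. The members and lists were chosen with earlier results of these data known. Figures were drawn with matplotlib 3.10.9, and promoters came from RefSeq.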

Additional observations from a re-analysis of the deposited data

Results flagged for a closer look

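In 2 of the 27 tests of a gene's levels within a group of 4 libraries, 1 library lay far from the other 3 by Dixon's gap ratio; by chance alone about 1 in 20 such groups would. Both were in the 4 lung libraries labelled Smad4 off at day 7. Ereg was at 67.2 CPM in replicate 2, where the others were at 8.29 to 9.20 CPM (ratio 0.985 against a critical value of 0.829), which was the highest Ereg level of the 35 libraries. Tgfa was at 26.2 CPM in replicate 4, where the others were at 36.7 to 37.2 CPM (ratio 0.949). No explanation of either value was tested.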

How the results depend on the processing

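Calls between organs (15 of 54) became 7 on day 7 alone, 13 on day 7 without the paired-end library (an alternative chosen after seeing the data), 10 on day 14 alone and 26 with no fold threshold, and were 12 to 19 under the other alternatives and 12 to 18 without 1 library. Calls between labels (1 of 54) were 4 with DESeq2, 2 with no filter, 2 with the mt-Co3 covariate, 3 in 1 model of all 12 groups, 2 with no fold threshold and 1 to 6 without 1 library. The 6 came without the first liver library labelled off at day 7, which left the paired-end library alone in its group; 9 interactions and 2 day differences were then called. Interactions (0) were 4 with DESeq2, 1 with the mt-Co3 covariate, 3 in the model of all groups and 0 to 9 without 1 library. Day differences (0) were 1 with DESeq2, 1 in the model of all groups and 0 to 2 without 1 library. With the mouse number as a replicate block, 1 label call, 14 organ calls, 0 day calls and 0 interactions were made, and in the liver at day 7 Ereg turned from −1.12 to 0.30; without 1 library it ranged from −2.01 to 1.71, the latter without the first library labelled off. The model of all groups did not call Erbb3 in the pancreas at day 14 (1.15, adjusted p = 0.356). With the mt-Co3 covariate, Btc in lungs against pancreas labelled on was no longer called (1.06, adjusted p = 0.101), Btc in liver and lungs (1.28 and 1.10) and Tgfa in liver (1.10) against pancreas labelled off were called, and Erbb3 was called in the interaction of liver and lungs at day 7 (2.89, adjusted p = 0.0354). That covariate could not be fitted to labels within the pancreas. Where a cause is not given, the cause was not tested. The counts of this paragraph stand without the share of all genes called in the same fits. They do not show whether the 9 genes moved more than genes in general. With TMM library sizes, 102 of 108 group means moved by less than 1 SD.

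Pancreas groups have 2 or 3 libraries per label and day, so a missed threshold there does not show equal levels. The same holds for labels in the liver at day 14 and the lungs at day 7. There even Smad4 missed the adjusted p threshold in edgeR. Its values were −2.93 ± 0.23 (adjusted p = 0.0625) in the liver and −2.21 ± 0.22 (adjusted p = 0.151) in the lungs. Without the paired-end library, the liver labelled off at day 7 holds a lone library. Tests of that group then take their spread from other groups. Ereg and Nrg1 had as few as 15 and 25 counts in a library.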
